A study of Rattus norvegicus with 11 samples.

Results

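The prostaglandin and leukotriene synthesis genes are 10 of the 32623 genes measured in the peripheral white blood cells (WBCs) of rats with collagen-induced arthritis (CIA). They were taken by symbol and are Pla2g4a, Ptgs1, Ptgs2, Ptges, Alox5, Alox5ap, Lta4h, Ltc4s, Alox15 and Ltb4r. Each symbol stood on 1 row, and none of the 10 overlapped another listed gene. All animals were male Wistar rats, 7 weeks old at the start. CIA was raised in 4 rats with type II collagen in incomplete Freund's adjuvant and a boost on day 7. Blood from each of these rats was sampled first at NAMPT++ status (about day 8) and again at NAMPT+ status (about day 14), so that the 8 CIA samples come from 4 animals. The authors set the status by their own PCR of Nampt, the gene of an enzyme that makes NAD, so status, day and stage of arthritis cannot be told apart. The 3 controls were normal healthy rats. Blood was drawn from the orbital vein, red blood cells were lysed, and poly(A) RNA of the remaining cells was sequenced. The extraction protocol deposited with the samples names retinas instead, but of 6 retina genes 5 stayed below 1 FPKM in every sample and 2 were listed at 0 throughout.

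Eicosanoids are lipid signals made from arachidonic acid, which cytosolic phospholipase A2 (Pla2g4a) cuts from membranes. Cyclooxygenases (Ptgs1, always present in many cells, and Ptgs2, induced by inflammatory stimuli) turn it into prostaglandin H2, from which Ptges makes prostaglandin E2. In the other arm 5-lipoxygenase (Alox5) and its helper protein (Alox5ap) make leukotriene A4. Lta4h converts this to leukotriene B4, which draws neutrophils through the receptor Ltb4r, while Ltc4s converts it to the cysteinyl leukotrienes. Alox15 oxidises arachidonic and linoleic acid at other carbons, and is known in maturing red cells, eosinophils and some macrophages. Prostaglandin E2 and leukotriene B4 are both known from arthritic joints.

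Promoter sequences are shown for the genes that open each arm (Ptgs1, Ptgs2 and Alox5) and for the receptor, whose fitted difference from controls was the largest among the members in NAMPT++ samples. They are RefSeq sequences of the GRCr8 assembly, 250 bases before to 50 bases after the gene start, and 8 of the 10 members had an entry (not Alox5ap and Alox15). The positions are chr3:39981169-39981468 (+ strand) for Ptgs1, chr13:64713813-64714112 (+) for Ptgs2, chr4:151251077-151251376 (- strand) for Alox5 and chr15:33232870-33233169 (+) for Ltb4r. Capitals mark matches, on either strand, to 7 short motifs. These are TATAAA (a start-site box), CACGTG (E-box), GGGCGG (GC box), TGANTCA (AP-1 pattern), TTNNGNAA (C/EBP pattern), the kappa B pattern (GGGA, then 4 bases of any kind, then CC) and AGGAAGT (ETS pattern).

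Ptgs1: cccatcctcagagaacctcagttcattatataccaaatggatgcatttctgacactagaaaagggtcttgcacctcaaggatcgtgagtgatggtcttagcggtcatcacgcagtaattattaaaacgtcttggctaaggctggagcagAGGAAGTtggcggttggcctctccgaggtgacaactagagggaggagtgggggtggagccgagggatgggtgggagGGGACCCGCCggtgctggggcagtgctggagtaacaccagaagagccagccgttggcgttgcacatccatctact
Ptgs2: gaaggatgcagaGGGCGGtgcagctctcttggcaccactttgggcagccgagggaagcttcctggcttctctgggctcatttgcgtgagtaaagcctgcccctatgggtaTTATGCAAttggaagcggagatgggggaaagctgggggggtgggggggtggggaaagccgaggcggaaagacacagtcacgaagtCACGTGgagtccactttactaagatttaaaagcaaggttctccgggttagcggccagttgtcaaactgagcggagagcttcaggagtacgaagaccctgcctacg
Alox5: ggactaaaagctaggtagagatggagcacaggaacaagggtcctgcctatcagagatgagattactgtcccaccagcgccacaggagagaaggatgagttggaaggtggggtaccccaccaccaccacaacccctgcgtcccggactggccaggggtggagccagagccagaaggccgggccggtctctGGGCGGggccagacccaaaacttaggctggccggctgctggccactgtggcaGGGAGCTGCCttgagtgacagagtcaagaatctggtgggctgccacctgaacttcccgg
Ltb4r: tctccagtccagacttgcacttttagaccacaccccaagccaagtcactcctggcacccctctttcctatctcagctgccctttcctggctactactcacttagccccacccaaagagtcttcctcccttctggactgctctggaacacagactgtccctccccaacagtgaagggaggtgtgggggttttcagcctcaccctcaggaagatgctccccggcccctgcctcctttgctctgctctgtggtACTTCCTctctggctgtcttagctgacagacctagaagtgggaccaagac

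The Ptgs2 window held an E-box 55 bases before the gene start, a GC box and the C/EBP pattern, and that of Ptgs1 held the kappa B and ETS patterns instead. Alox5 had a GC box and the kappa B pattern, and Ltb4r had the ETS pattern on the other strand at its start. Among all 33469 promoters of this length, the E-box was in 6.42%, the ETS pattern in 8.41%, the kappa B pattern in 19.3%, the GC box in 33.1% and the C/EBP pattern in 41.3%. None of the 4 windows held TATAAA (14.2% of all promoters) or the AP-1 pattern (7.33%). GC made up 54.3%, 56.7%, 61.7% and 56.3% of the Ptgs1, Ptgs2, Alox5 and Ltb4r windows, against a median of 51.7% over all promoters. A match is only a likeness of letters.

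The authors counted reads per gene and gave the counts also as FPKM, fragments scaled by transcript length and by the sample's mapped total, so levels of different genes are compared below on the FPKM scale. Total counts per sample ranged from 65340027 to 85819418. WBC genes were present, with S100a8 of neutrophils at 638 to 12479 FPKM and Cd3e of T cells at 64.4 to 217 FPKM. The share of counts on haemoglobin genes was 16.2 to 30.9% among controls, 6.84 to 37.3% at NAMPT++ and 14.8 to 42.8% at NAMPT+ status. Summed FPKM of 10 neutrophil genes was 2163 to 14301 in controls, 3011 to 40341 in NAMPT++ and 3825 to 15689 in NAMPT+ samples. With bulk RNA, fewer cells of a type and less RNA per cell cannot be told apart.

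The levels of the members ran from Alox15, 138th of the 11242 genes with a mean of at least 1 FPKM, to Ltc4s, which was below that level. Alox5ap came 347th. Ptgs2 (1689th), Lta4h (2283rd), Ptgs1 (3228th), Ltb4r (3627th) and Alox5 (4956th) lay in the middle, and Ptges (10344th) and Pla2g4a (11158th) near the bottom. The mean over all samples was 649 FPKM for Alox15, 221 for Alox5ap, 37.5 for Ptgs2, 26.8 for Lta4h, 17.8 for Ptgs1, 15.3 for Ltb4r and 9.93 for Alox5. It was 1.53 FPKM for Ptges, 1.04 for Pla2g4a and 0.575 for Ltc4s. The ranges of the samples of neighbours in this order overlapped.

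**Figure D1:**
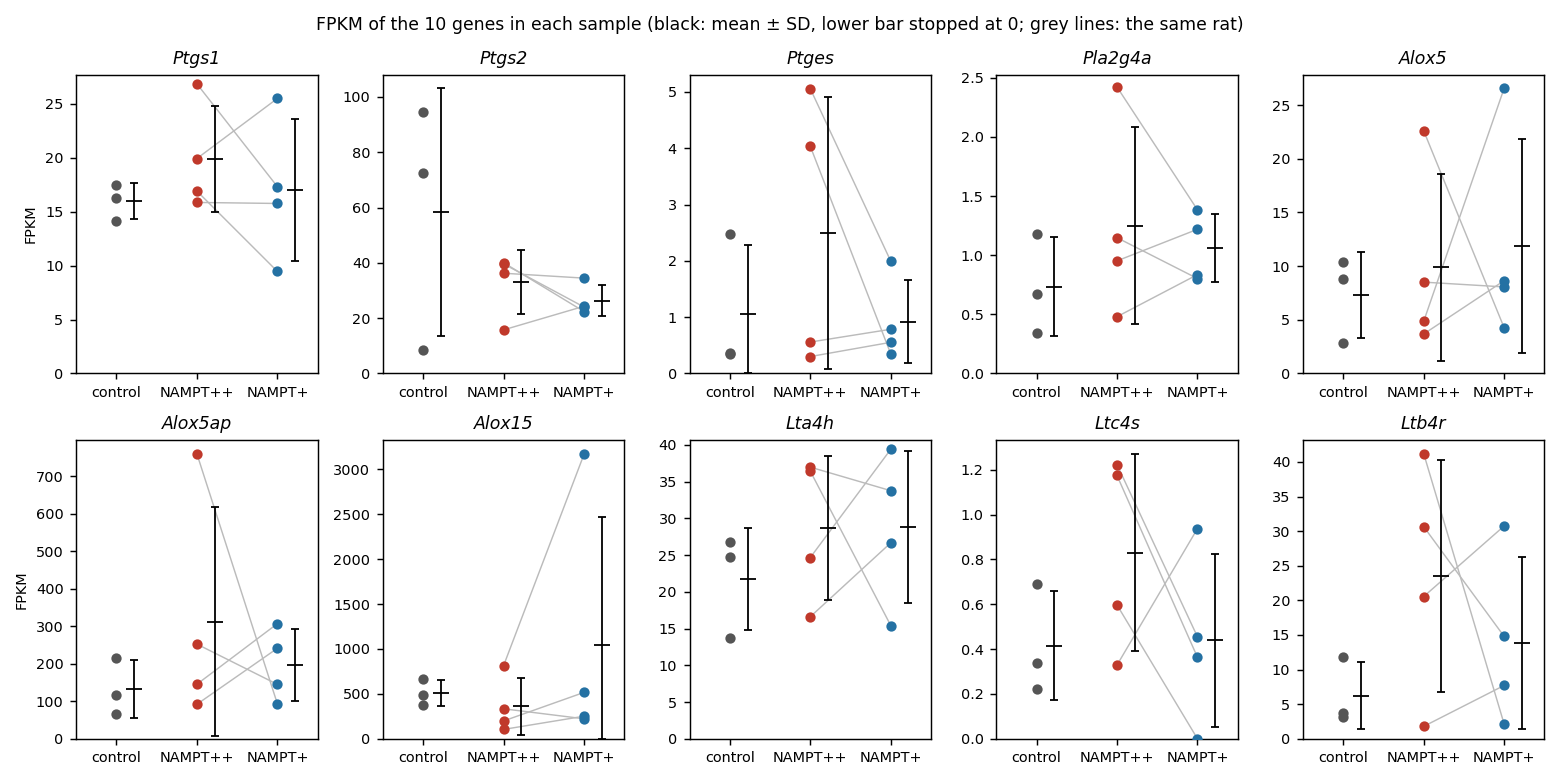
FPKM of the 10 genes (y axis, from 0, 1 panel a gene) in each sample of the 3 groups (x axis), with grey lines joining the samples of 1 rat and black bars for the mean ± SD of 3 controls and 4 samples in each CIA group. The groups overlap in all 10 panels, and single samples such as Alox15 at 3169 FPKM in NAMPT+ rat 2 stretch the spread.

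Pla2g4a, which releases arachidonic acid, was low. Its FPKM was 0.675, 1.18 and 0.345 in controls 1 to 3, 2.42, 0.480, 1.15 and 0.952 in NAMPT++ samples of rats 1 to 4, and 1.38, 0.836, 0.802 and 1.22 in NAMPT+ samples of the same rats. The highest value was that of NAMPT++ rat 1 and the lowest that of control 3, and the groups overlapped. The gene (ENSRNOG00000002657, chr13:66988937-67206693, - strand, as deposited, on a build that the sources used here do not give) lies next to Ptgs2 (chr13:67351087-67359335, + strand). The pair stood 144393 bases apart with 0 listed genes between them, and their log2(FPKM + 1) correlated with r = 0.43 over the 11 samples.

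Ptgs1, the cyclooxygenase of platelets among other cells, was the steadiest member in controls, with a coefficient of variation of 10.5%. It measured 14.2, 17.5 and 16.3 FPKM in controls, 19.9, 15.9, 16.9 and 26.9 in NAMPT++ samples, and 25.5, 15.8, 9.46 and 17.3 in NAMPT+ samples. The CIA samples spread to both sides of the controls. In 3 of 4 rats Ptgs1 was lower at NAMPT+ than at NAMPT++ status, in rat 2 by under 1% (15.9 against 15.8 FPKM). Without haemoglobin reads in the FPKM scale it was higher at NAMPT+ in rats 1 and 2 and lower in rats 3 and 4.

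Ptgs2, the inducible cyclooxygenase, stood at 94.6, 72.6 and 8.32 FPKM in controls, at 40.0, 15.8, 39.6 and 36.3 in NAMPT++ samples, and at 22.4, 24.3, 24.0 and 34.5 in NAMPT+ samples. The highest and the lowest of all 11 values were both controls. Every CIA sample lay below controls 1 and 2 and above control 3. Between the statuses Ptgs2 was lower at NAMPT+ in 3 of 4 rats. Without haemoglobin reads in the FPKM scale it was lower in rats 1 and 3 and higher in rats 2 and 4. The ratio of Ptgs2 to Ptgs1 FPKM was 6.68, 4.15 and 0.512 in controls and 0.877 to 2.54 in the 8 CIA samples, again inside the range of the controls.

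Ptges, the inducible prostaglandin E synthase, was below 1 FPKM in 7 of 11 samples. The controls had 0.355, 2.48 and 0.352 FPKM, NAMPT++ samples 0.300, 0.558, 5.06 and 4.03, and NAMPT+ samples 0.553, 0.785, 1.99 and 0.346. NAMPT++ rats 3 and 4 were the highest, and rat 1 of the same group was the lowest of all 11. With haemoglobin reads left out of the FPKM scale, control 2 (5.07) was above NAMPT++ rat 4 (4.83).

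Alox5, which starts leukotriene synthesis, measured 10.4, 8.82 and 2.81 FPKM in controls, 22.6, 3.67, 8.51 and 4.86 in NAMPT++ samples, and 4.25, 8.64, 8.06 and 26.6 in NAMPT+ samples. One rat was high at each status, rat 1 at NAMPT++ and rat 4 at NAMPT+, and both were below 5 FPKM at their other status. Alox5ap, the protein that hands arachidonic acid to Alox5, had 117, 216 and 65.7 FPKM in controls, 759, 92.0, 252 and 145 in NAMPT++ samples, and 92.9, 241, 145 and 307 in NAMPT+ samples. Rats 1 and 4 held the highest value of their status for this gene too, and Alox5ap exceeded Alox5 in each of the 11 samples. With haemoglobin reads left out of the FPKM scale, Alox5ap at NAMPT+ status was highest in rat 2 (643), above rat 4 (437). Rat 1 stayed the highest at NAMPT++ status.

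Lta4h, which makes leukotriene B4, varied least among the tested members of the leukotriene arm. It stood at 24.8, 26.7 and 13.7 FPKM in controls, at 36.4, 16.6, 37.0 and 24.7 in NAMPT++ samples, and at 15.4, 26.7, 33.8 and 39.4 in NAMPT+ samples. In each CIA group 2 of 4 values were above every control, and none was below the lowest control. Without haemoglobin reads in the FPKM scale only rat 3 (59.1) was above every control at NAMPT++ status, where control 2 was at 54.7. Ltc4s, which makes leukotriene C4, was at 0.689, 0.337 and 0.222 FPKM in controls, at 1.17, 0.329, 0.597 and 1.22 in NAMPT++ samples, and at 0.363, 0.938, 0 and 0.455 in NAMPT+ samples. It was the 1 member with no read in a sample (NAMPT+ rat 3), had at most 47 reads, and was too low to be tested.

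Alox15 had 486, 665 and 372 FPKM in controls, 198, 815, 334 and 104 in NAMPT++ samples, and 516, 3169, 222 and 251 in NAMPT+ samples. NAMPT+ rat 2 stood far above the rest with 517016 reads, 0.722% of its total, which made Alox15 the 10th most counted gene there. Rat 2 also held the highest value among NAMPT++ samples, and haemoglobin took its largest shares of counts in the same pair of samples (37.3% and 42.8%). Within rats, Alox15 was higher at NAMPT+ in 3 of 4.

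Ltb4r, the leukotriene B4 receptor, measured 3.07, 11.8 and 3.75 FPKM in controls, 41.2, 1.79, 30.7 and 20.6 in NAMPT++ samples, and 2.11, 7.71, 14.8 and 30.8 in NAMPT+ samples. In NAMPT++ samples 3 of 4 values were above every control, and the fourth, rat 2, was the lowest of all 11. In NAMPT+ samples rats 3 and 4 were above every control and rat 1 was below them. Without haemoglobin reads in the FPKM scale NAMPT+ rat 3 was at 22.9, below control 2 at 24.2, and rat 4 stayed above every control. The receptor varied more than the tested enzymes of the leukotriene arm, with its highest sample 23.0 times its lowest, against 11.6 times for Alox5ap, 9.45 times for Alox5 and 2.87 times for Lta4h.

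For each pair of groups edgeR's quasi-likelihood test was run on the read counts of every gene averaging at least 1 FPKM in the samples compared. Called genes had group means more than 2-fold apart (ratio over 2 or under 0.5, in FPKM) together with an unadjusted p under 0.05, the thresholds of the study. Adjusted p values are by Benjamini-Hochberg over all genes tested. The first comparison asks what differed at the early stage. In NAMPT++ samples against controls 0 of 9 members tested were called, against a background of 0.686% of all genes tested (77 of 11219), and the groups overlapped for all 10 members, while 1.1% of all genes did not overlap. None of the 9 had an unadjusted p under 0.05 in edgeR. Of the members limma called 0, against 145 of all 11219 genes tested. DESeq2 called 1 member (Ltb4r), against 121 of all 11219 genes. The median log2 fold change of the 9 members was 0.26, with 7 positive and 2 negative, against 0.00 over all genes tested.

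Ltb4r had the largest fitted difference, 23.6 ± 16.8 FPKM (SD, n = 4) in NAMPT++ samples against 6.22 ± 4.88 FPKM (SD, n = 3) in controls. Its log2 fold change was 1.66 ± 0.97 (SE), with an adjusted p = 1.00 in edgeR, and it was not called. DESeq2 called it at a like log2 fold change of 1.66 ± 0.84 (adjusted p = 1.00). It was called in edgeR, too, when control 2 (log2 fold change 2.88, adjusted p = 0.546) or NAMPT++ rat 2 (2.04, adjusted p = 0.902) was left out. Alox5ap stood at 312 ± 305 against 133 ± 76.3 FPKM, with a log2 fold change of 1.00 ± 0.80 (SE) in edgeR. It was 0.13 without NAMPT++ rat 1 and 1.82 without control 2. The highest value was that of rat 1, which also had the highest summed neutrophil genes of all samples (40341 FPKM).

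Ptgs2 was at 32.9 ± 11.6 FPKM in NAMPT++ samples against 58.5 ± 44.9 FPKM in controls, with a log2 fold change of -1.04 ± 0.74 (SE) in edgeR. Here control 3 decided the call. Without it the log2 fold change was -1.57 ± 0.33 (adjusted p = 1.00 in edgeR) and Ptgs2 was called lower. Alox15 had a log2 fold change of -0.49 ± 0.75 (SE) and was called lower only without NAMPT++ rat 2 (-1.41, adjusted p = 0.902 in edgeR). The log2 fold changes of the other members tested were 0.91 ± 1.18 for Ptges, 0.54 ± 0.66 for Pla2g4a, 0.26 ± 0.42 for Lta4h, 0.25 ± 0.72 for Alox5 and 0.22 ± 0.23 for Ptgs1. Single samples moved some of these by over 1.5-fold. Ptges was at 2.89 without control 2 and 0.19 without NAMPT++ rat 3, Pla2g4a at 1.33 without control 2 and Alox5 at -0.49 without NAMPT++ rat 1. Within 1 SE of its estimate, a difference over 2-fold remained possible for Ptges and Pla2g4a, as it did for Ltb4r, Alox5ap, Ptgs2 and Alox15.

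**Figure D2:**
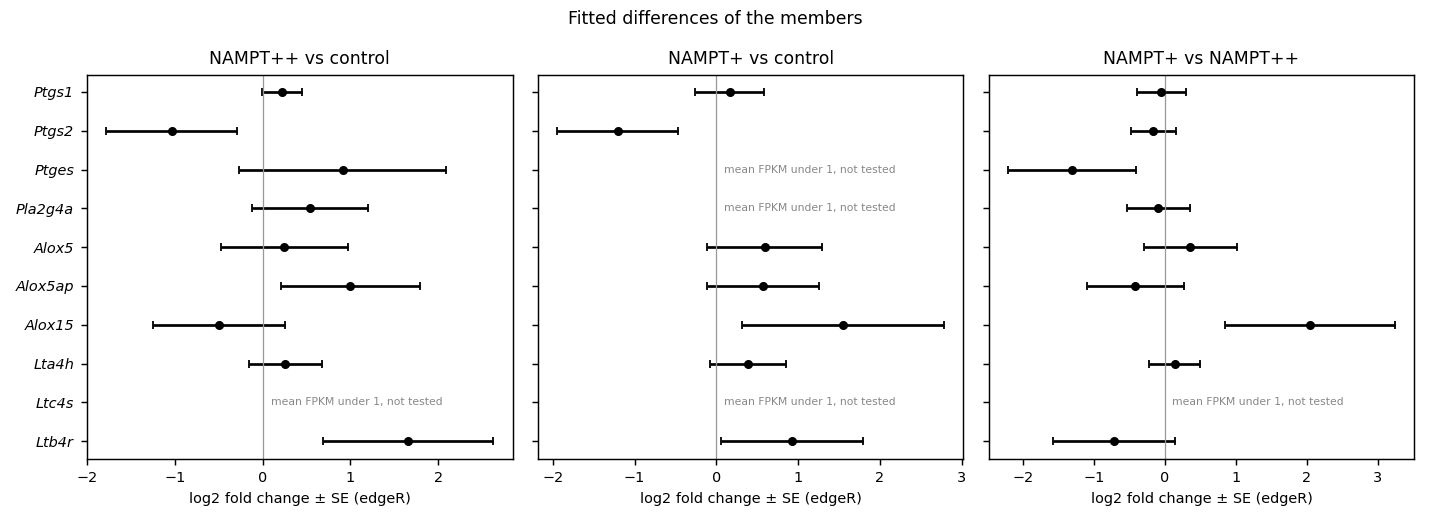
Log2 fold change (x axis, points) with its SE (bars) from edgeR for each member tested (y axis) in the 3 comparisons. Ltb4r in NAMPT++ samples (1.66) and Alox15 in NAMPT+ samples (1.55 against controls, 2.04 against NAMPT++) lie farthest above 0, and Ptgs2 lies below 0 in both comparisons with controls.

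The comparison of NAMPT+ samples with controls asks the same of the later stage, and it shares its controls with the first. Of the 7 members tested 0 were called, against a background of 0.497% (56 of 11269), and 0 of 10 were free of overlap, against 0.444% of all genes. None of the 7 had an unadjusted p under 0.05 in edgeR. Limma called 0 as well, against 79 of all 11269 genes tested. DESeq2 called 0 of the 6 members to which it gave a p, against 73 of all 11229 genes with a p. It gave none to Alox15 (log2 fold change 1.57). The median log2 fold change of the 7 members in edgeR was 0.58, with 6 positive and 1 negative, against -0.00 over all genes tested.

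Alox15 averaged 1040 ± 1426 FPKM (SD, n = 4) in NAMPT+ samples against 508 ± 148 FPKM (SD, n = 3) in controls, with a log2 fold change of 1.55 ± 1.24 (SE) in edgeR. The sign depended on NAMPT+ rat 2, and without that sample the log2 fold change was -0.89. Ptgs2 was at 26.3 ± 5.52 FPKM, with a log2 fold change of -1.21 ± 0.74 (SE) in edgeR. Without control 3 it was called lower once more (-1.74 ± 0.32, adjusted p = 1.00 in edgeR). Ltb4r was at 13.8 ± 12.4 FPKM, with a log2 fold change of 0.92 ± 0.87 (SE), and was called higher only without control 2 (2.15, adjusted p = 0.988 in edgeR). Alox5 (0.59 ± 0.70), Alox5ap (0.58 ± 0.69), Lta4h (0.39 ± 0.47) and Ptgs1 (0.16 ± 0.42) had smaller positive log2 fold changes, of which that of Alox5ap was 1.40 without control 2. Ptges and Pla2g4a averaged below 1 FPKM over these 7 samples and were not tested.

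**Figure D3:**
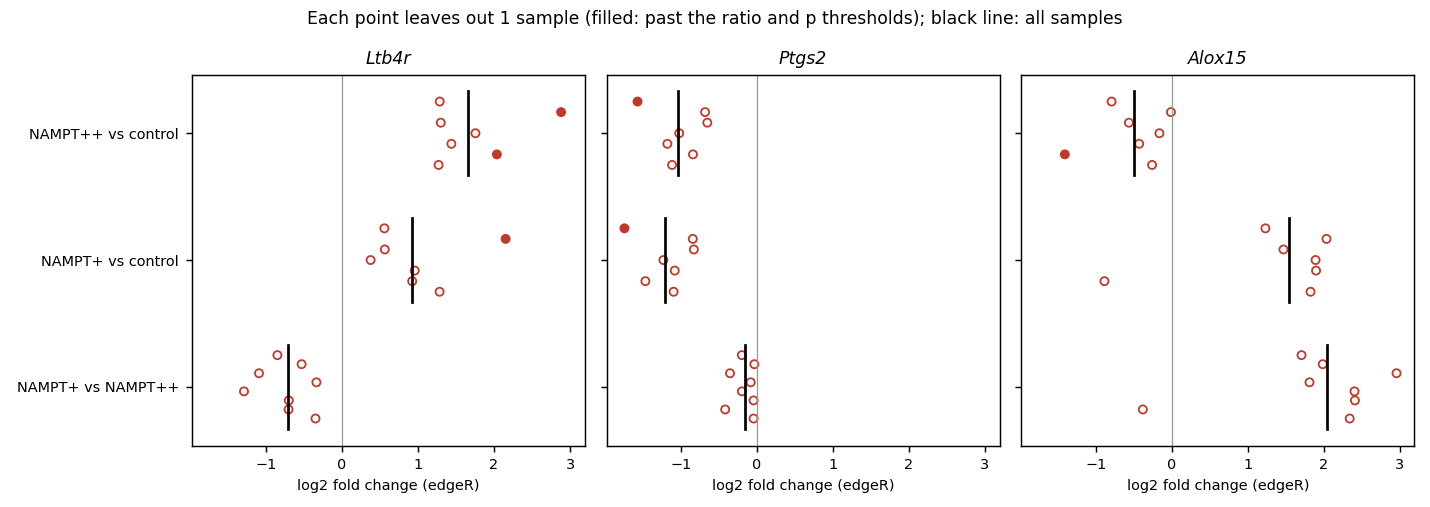
Log2 fold change from edgeR (x axis) of Ltb4r, Ptgs2 and Alox15 in the 3 comparisons (y axis) with all samples (black lines) and with 1 sample left out (points, filled where the gene was called). Ptgs2 is called without control 3 in both comparisons with controls, and Alox15 changes sign in both comparisons of NAMPT+ samples without NAMPT+ rat 2 (-0.89 and -0.38).

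The comparison of NAMPT+ with NAMPT++ samples asks what differed in the same rats between the stages. Its main fits had no term for the rat, so they took the samples of a rat as independent. In edgeR this comparison called 0 of 9 members tested, against a background of 0.642% (72 of 11219). Of 10 members 0 were free of overlap, against 0.41% of all genes. No member had an unadjusted p under 0.05 in edgeR. Limma called 0 members, against 91 of all 11219 genes tested. DESeq2 called 0 of 8 members, against 104 of all 11187 genes with a p, and again gave Alox15 (log2 fold change 2.05) no p. The median log2 fold change of the 9 members in edgeR was -0.09, with 3 positive and 6 negative, against -0.00 over all genes tested. Alox15 was 1040 ± 1426 against 363 ± 316 FPKM (SD, n = 4 each), a ratio of means of 2.87. Its log2 fold change was 2.04 ± 1.20 (SE) in edgeR and -0.38 without NAMPT+ rat 2, and 2.96 without NAMPT++ rat 2. With the rat as a replicate block, limma on log2(FPKM + 1) called Alox15 (difference 1.00 ± 0.38, adjusted p = 1.00), among 123 of all 11219 genes. With the same block edgeR gave Alox15 1.14 ± 0.61 and called 0 members, against 56 of all 11219 genes.

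Within rats Alox15 went from 198 to 516, from 815 to 3169 and from 104 to 251 FPKM in rats 1, 2 and 4, and from 334 to 222 FPKM in rat 3. Ptges had a log2 fold change of -1.31 ± 0.90 (SE) in edgeR, and it was higher at NAMPT+ in 2 rats and lower in 2. Without NAMPT++ rat 3 the Ptges value was -0.58. The other members lay between -0.71 ± 0.86 (Ltb4r) and 0.36 ± 0.66 (Alox5). Without NAMPT++ rat 1 Alox5 was at 1.08 and Alox5ap at 0.45, against -0.41 ± 0.69 with all samples. For Ptges, Pla2g4a, Alox5, Alox5ap, Lta4h and Ltb4r 2 rats were higher and 2 lower at NAMPT+ status. The exact sign-flip permutation test of the within-rat differences gave p = 0.25 to 1 over the 10 members, where the smallest possible is 0.125. Two-sided exact permutation tests of log2(FPKM + 1) between groups gave p = 0.257 to 0.771 for NAMPT++ samples against controls, 0.257 to 1 for NAMPT+ samples against controls and 0.2 to 1 between the statuses, where the smallest possible p is 0.0286.

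The other genes of eicosanoid metabolism were a list of 62, of which 58 were found under their symbols and 36 had a mean of at least 1 FPKM over all samples. Of the 36 tested, 0 were called and 0 had an unadjusted p under 0.05 in edgeR in each of the 3 comparisons, and the groups overlapped for all of them. In NAMPT++ samples against controls DESeq2 called 1 (Ggt1, which breaks down leukotriene C4), against 121 of all 11219 genes. Ggt1 was high in 1 sample, with 36.3 FPKM in NAMPT++ rat 1 and 0.782, 7.03 and 4.01 in rats 2 to 4. The controls had 2.57, 4.33 and 0.906 FPKM. In NAMPT+ samples against controls limma called 1 (Pnpla2, a triglyceride lipase listed at 0 in 3 samples), against 79 of all 11269 genes. The median log2 fold change of the list was 0.09 in both comparisons with controls and -0.01 between the statuses. No row had the symbol Ptgis, Fam213b, Ptgdr or Ggt5, and these genes were not analysed here.

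In each role class the most abundant gene was taken as its example. Pla2g2a, a secreted phospholipase A2 known from platelets and arthritic joint fluid, was at 1004 ± 356 FPKM (SD, n = 3) in controls, 1613 ± 1008 in NAMPT++ and 1432 ± 903 in NAMPT+ samples (SD, n = 4 each). It was thus the highest phospholipase of the list, and its log2 fold change in NAMPT++ samples was 0.49 ± 0.50 (SE). Ptges3, a cytosolic prostaglandin E synthase and co-chaperone, was at 33.6 ± 10.9, 36.4 ± 6.48 and 32.1 ± 8.01 FPKM in the same order, above Ptges in each group. Ptger2, a receptor of prostaglandin E2, was at 27.9 ± 22.5, 44.0 ± 19.4 and 31.3 ± 12.5 FPKM.

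Cotl1, an actin-binding protein that binds Alox5, was at 191 ± 28.1, 218 ± 44.8 and 204 ± 59.6 FPKM, with a log2 fold change of 0.14 ± 0.21 (SE) in NAMPT++ samples. Alox12, the platelet lipoxygenase, was at 36.4 ± 7.98, 36.8 ± 12.1 and 32.0 ± 14.7 FPKM. Ptgr2, which breaks down prostaglandins, and Fpr2, a receptor for lipoxins and formyl peptides, were low, with means of 2.60 and 2.10 FPKM over all samples. For these 7 genes the differences between group means were smaller than the SD of at least 1 of the groups compared. Without control 2, edgeR called 4 genes of the list in NAMPT++ samples (Fpr2, Mboat7, Ptger2 and Tbxas1, the thromboxane synthase). Among the fits with 1 sample left out, this fit also called the most of all genes tested, far more than the 77 of 11219 called with all samples. Its count is the upper end of the range given for this comparison in the last section. Mboat7 was listed at 0 in 5 samples, and controls 1 and 3 were among them.

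**Figure D4:**
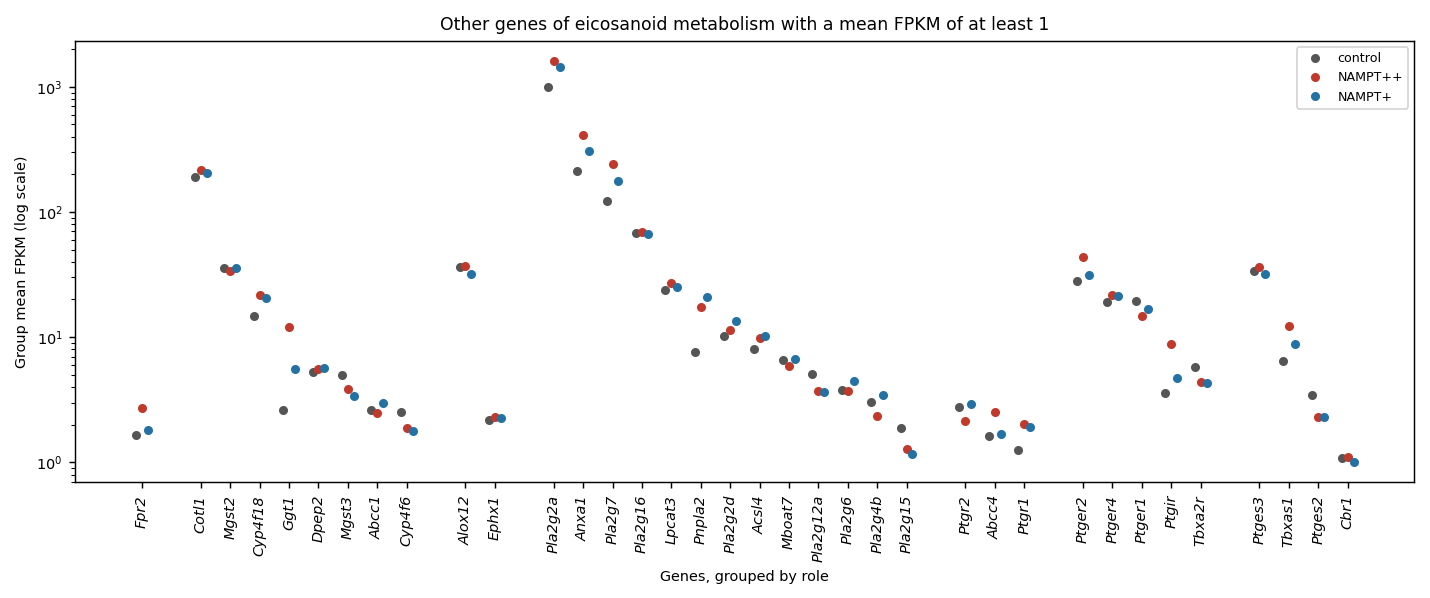
Group mean FPKM (y axis, log scale) of the 36 other eicosanoid genes with a mean of at least 1 FPKM (x axis), in blocks from left to right for leukotriene and lipoxin receptors, leukotriene chain and breakdown, other lipoxygenases and epoxide hydrolase, phospholipases and arachidonate handling, prostanoid breakdown and transport, prostanoid receptors and prostanoid synthases. The 3 group means lie close together beside the range over genes, from 1381 FPKM (Pla2g2a) to 1.06 FPKM (Cbr1) as means over all samples.

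The members' levels were set beside marker genes of blood cells, as means of log2(FPKM + 1) over the 7 animals (the statuses of a rat averaged), with two-sided exact permutation tests adjusted by Benjamini-Hochberg over 12 relations. The clearest relation was that of Ptgs2 with 7 immediate early genes (Fos, Fosb, Jun, Junb, Egr1, Ier2 and Atf3), which cells switch on quickly after a stimulus. Pearson's r was 0.98 (exact permutation p = 0.000198, the smallest possible, adjusted 0.00238) and Spearman's rho 1 (exact p = 0.000397, adjusted 0.00476). It was 0.95 without the 2 animals farthest from the median. The list's summed FPKM was 815 to 3391 in controls, 792 to 2756 in NAMPT++ and 1322 to 2102 in NAMPT+ samples, and its part in the Ptgs2 differences was not tested.

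Alox15 went with the haemoglobin share of counts, a relation added after its values were seen. Pearson's r was 0.90 (exact permutation p = 0.00298, adjusted 0.0179), Spearman's rho was 0.89 (exact p = 0.0123, adjusted 0.0295), and r was 0.79 without the 2 farthest animals. With haemoglobin reads taken out of the FPKM scale r was 0.93. The part of red cell RNA in the Alox15 values was not tested. Eosinophil genes, another known source of Alox15, gave r = -0.77 (exact permutation p = 0.0401, adjusted 0.0687) and rho = -0.75 (exact p = 0.0663, adjusted 0.114), and r = 0.08 with haemoglobin taken out. Of 6 eosinophil genes found, 3 stayed below 1 FPKM in every sample (Epx, Prg3 and Il5ra), and the summed level was 9.30 to 11.1 FPKM in controls, 8.78 to 10.2 in NAMPT++ and 6.02 to 20.8 in NAMPT+ samples.

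Alox5ap went with 10 neutrophil genes, with r = 0.90 (exact permutation p = 0.0111, adjusted 0.0333) and rho = 0.86 (exact p = 0.0238, adjusted 0.0476), and r was 0.71 without the 2 farthest animals. For Alox5 the same list gave r = 0.87 (exact permutation p = 0.0262, adjusted 0.0552) and rho = 0.64 (exact p = 0.139, adjusted 0.167), and r was 0.67 without the 2 farthest. For Pla2g4a it gave r = 0.76 (exact permutation p = 0.0522, adjusted 0.0783) and rho = 0.89 (exact p = 0.0123, adjusted 0.0295), and r was 0.63 without the 2 farthest. Ltb4r gave r = 0.58 with neutrophil genes (exact permutation p = 0.158, adjusted 0.211) and rho = 0.71 (exact p = 0.0881, adjusted 0.132), and r was 0.67 without the 2 farthest.

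With 7 monocyte genes, by contrast, Ltb4r gave r = 0.92 over the animals (exact permutation p = 0.00833, adjusted 0.0333) and rho = 0.93 (exact p = 0.00675, adjusted 0.0295), and r was 0.92 without the 2 farthest. With haemoglobin taken out r over the animals was 0.77. Over the 11 single samples r was only 0.18 with monocyte genes, against 0.74 with neutrophil genes. The relation of Ltb4r with monocyte genes thus depended on averaging the statuses of a rat. Alox5ap, Alox5 and Pla2g4a gave r = 0.51, 0.38 and 0.38 with monocyte genes (exact permutation p = 0.242, 0.434 and 0.416). Ptgs1 and 8 platelet genes gave r = 0.80 (exact permutation p = 0.0276, adjusted 0.0552) and rho = 0.89 (exact p = 0.0123, adjusted 0.0295). Without the 2 farthest animals r fell to 0.44, so the relation was weaker over the rest. Over the 11 single samples, which share rats, r was 0.89. Platelet genes summed to 3621 to 6910 FPKM in controls, 4976 to 9919 in NAMPT++ and 1805 to 15991 in NAMPT+ samples. Each group holds fewer than 6 animals, so no correlation within a group is given.

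**Figure D5:**
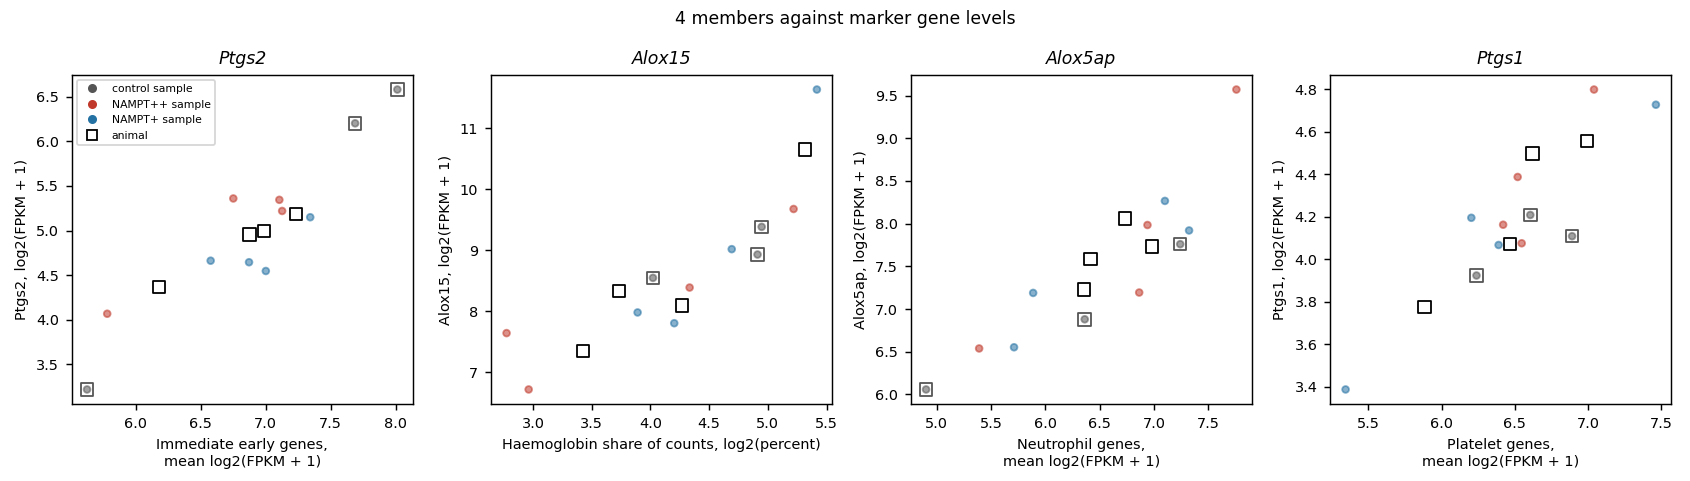
Level of Ptgs2, Alox15, Alox5ap and Ptgs1 (y axes, log2(FPKM + 1)) against the marker level named on each x axis, with small points for the 11 samples and squares for the 7 animals. Pearson's r over the animals is 0.98 for Ptgs2 with the immediate early genes, 0.90 in the Alox15 and Alox5ap panels and 0.80 in the Ptgs1 panel.

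Across the 11 samples, which share rats and libraries, 4 genes of the leukotriene arm (Alox5, Alox5ap, Lta4h and Ltb4r) had a positive r in every pair on the log2(FPKM + 1) scale. It was 0.86 for Alox5 and Alox5ap, 0.85 for Alox5 and Lta4h, 0.82 for Alox5ap and Lta4h, 0.82 for Alox5ap and Ltb4r, 0.87 for Lta4h and Ltb4r and 0.70 for Alox5 and Ltb4r. Ltc4s, of the same arm but with few reads, gave 0.32 with Alox5, 0.53 with Alox5ap, 0.27 with Lta4h and 0.37 with Ltb4r. The cyclooxygenases did not follow each other (r = 0.04), and Alox15 had a negative r with Ltb4r (-0.51). Among 4422 genes with a mean of at least 10 FPKM, those most like Alox5ap were C5ar1 (the complement C5a receptor, r = 0.99), Lilrb3a (0.99) and Gng10 (0.98). Those most like Lta4h were Trem1 (an amplifying receptor of myeloid cells, 0.96), Cass4 (0.95) and Adam8 (0.94), and for Ltb4r they were Gnai3 (0.99), Rtfdc1 (0.97) and Lgals3 (0.97).

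Ptgs2 was most like Junb (0.87), which is also on the immediate early list, Zfp36 (tristetraprolin, which destabilises mRNA, 0.86) and Ier3 (0.85). Alox15 was most like Rhd (the Rh blood group antigen, 0.95), Tmem86b (0.94) and Ranbp10 (0.93). Ptgs1 was most like Pdlim1 (0.97), Myl6 (a myosin light chain, 0.94) and Tax1bp3 (0.94). These likenesses are descriptions over 11 samples of 7 animals.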

How the data were processed

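WBCs of 4 CIA rats at NAMPT++ and NAMPT+ status and of 3 normal controls were measured by paired-end RNA-seq. Per the labels' processing notes, Cutadapt 1.9, HISAT2 2.0.4 and StringTie 1.3.4 were used. The authors deposited whole-number read counts per gene, not normalized, and FPKM values in 1 table of 32623 genes. The genome build and the counting rule are not given in the sources used here, so reads shared by similar genes may be split in ways that are not known. 

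Here edgeR 4.0.16 (quasi-likelihood test, TMM) was run on the counts over genes with a mean of at least 1 FPKM, with Benjamini-Hochberg adjustment over all genes tested. DESeq2 1.42.0 and limma 3.58.1 on log2(FPKM + 1) were alternatives, beside other filters, scalings, a pseudocount of 0.1, haemoglobin genes left out, the rat as a replicate block and each sample left out. Permutation tests used scipy 1.17.1. The edgeR script was tested on simulated data. The same rat gave NAMPT++ and NAMPT+ samples of 1 number. Deviations of such a pair from their group means correlated with r = -0.27, -0.24, 0.24 and 0.08 for rats 1 to 4 over 11219 genes. Genes named were the 10 members, the most abundant pathway gene of each role, pathway genes called or without overlap, and the 3 genes most like each member with a mean of at least 10 FPKM. Some pathway genes called only in alternatives are named as well. Members and lists were chosen with earlier results of these data known. Replicates are separate animals.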

Additional observations from a re-analysis of the deposited data

Results flagged for a closer look

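Of 20 sets of 4 samples (10 genes at NAMPT++ and NAMPT+ status), 3 held a sample that stood apart from the other 3 by Dixon's test at 95%, where chance gives about 1 in 20. Ptgs2 was at 15.8 FPKM in NAMPT++ rat 2, against 36.3 to 40.0 in the other rats of that status. Ptgs2 was at 34.5 FPKM in NAMPT+ rat 4, against 22.4 to 24.3 in the others. Alox15 was at 3169 FPKM in NAMPT+ rat 2, against 222 to 516 in the others. The Ptgs2 values depended on the haemoglobin reads in the FPKM scale. With these left out, Ptgs2 was at 47.2, 36.6, 63.4 and 43.4 in NAMPT++ samples of rats 1 to 4. In NAMPT+ samples it was then at 40.1, 64.8, 37.2 and 49.2, so rat 2 was the highest and not rat 4. Alox15 in NAMPT+ rat 2 still stood apart on that scale, at 8442 against 344 to 926.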

How the results depend on the processing

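Few reads limit Ltc4s (0 to 47 reads) and Ptges (30 to 564), and the number of rats limits every comparison. Over 9, 7 and 9 members tested in NAMPT++ against control, NAMPT+ against control and NAMPT+ against NAMPT++, 141 of 149, 112 of 117 and 161 of 176 alternative fits with a p kept the sign and stayed uncalled, 5, 2 and 1 newly called a member, and 3, 3 and 14 changed a sign. Scaling moved the median of all genes by under 0.1 on the log2 scale. In that order of comparisons, all genes called numbered 306, 261 and 295 with no FPKM minimum and 25, 14 and 19 with a mean of at least 10 FPKM, since more or fewer genes were tested, and 1 pathway gene was called in each with no minimum. For NAMPT++ against control, DESeq2 called 121 genes, 1 member and 1 pathway gene, and limma called 145 (140 with a pseudocount of 0.1). For NAMPT+ against control, limma with either pseudocount called 1 pathway gene. With the rat as a replicate block, limma called 123 genes and 1 member (Alox15), and edgeR called 56 genes and gave Pla2g4a a log2 fold change of 0.031; the block changed no other call of a member. Other causes were not tested.

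Leaving out each sample in turn gave 0 to 2, 0 to 1 and 0 members called, 0 to 4, 0 to 1 and 0 pathway genes, and 53 to 462, 49 to 136 and 58 to 165 genes in the 3 comparisons, the highest counts without control 2, control 2 and NAMPT+ rat 2. Log2 fold changes that changed sign ranged over -0.49 to 0.58 (Alox5) and -0.085 to 0.65 (Lta4h) in the first comparison, -0.087 to 0.46 (Ptgs1) and -0.89 to 2.04 (Alox15) in the second, and -0.29 to 0.20 (Ptgs1), -0.33 to 0.066 (Pla2g4a), -0.17 to 1.08 (Alox5), -0.91 to 0.45 (Alox5ap), -0.38 to 2.96 (Alox15) and -0.12 to 0.38 (Lta4h) between the statuses. Differences in mean log2(FPKM + 1) that did so ranged over -1.39 to 0.29 (Ptgs2) and -0.26 to 0.54 (Alox5) in the first, -0.20 to 0.25 (Ptgs1), -1.64 to 0.040 (Ptgs2), -0.26 to 0.43 (Ptges), -0.69 to 0.59 (Alox15) and -0.16 to 0.16 (Ltc4s) in the second, and -0.25 to 0.15 (Pla2g4a), -0.20 to 0.73 (Alox5), -0.77 to 0.24 (Alox5ap) and -0.23 to 0.26 (Lta4h) between the statuses. Without haemoglobin genes such differences changed sign to -0.011 (Alox5, first), 0.0094 (Ltc4s, second) and 0.00045 (Ptgs2), 0.12 (Pla2g4a) and 0.24 (Lta4h, between the statuses). A pseudocount of 0.1 turned Ptges to 0.083 in the second, and limma gave Lta4h -0.0026 (-0.0032 with a pseudocount of 0.1, and -0.0026 with the block) between the statuses.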
